A study of Mus musculus with 4 samples.

Results

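The genes described here are 8 members of the chemokine system that macrophages use to call in monocytes and eosinophils: the ligand genes Ccl2, Ccl6, Ccl7, Ccl8, Ccl12, Ccl24 and Pf4, and the receptor gene Ccr2. They were chosen by name, as a list of symbols, from the 27998 genes in the tables. Their unique molecular identifiers (UMIs, each marking an original RNA molecule) were counted in macrophages, monocytes, dendritic cells and lymphocytes of mouse melanomas. Chemokines are small secreted proteins that guide leukocytes along concentration gradients, through receptors on the responding cell. CCR2 is carried by inflammatory monocytes and brings them out of the bone marrow and into tumours, where they can become macrophages. CCL2, CCL7 and, in the mouse, CCL12 are ligands of CCR2, whereas CCL24 acts on the eosinophil receptor CCR3.

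C57BL/6 mice carried B16-GP33 melanomas (B16 melanoma cells that present the viral peptide GP33) injected under the skin of the flank, and tumours were taken on day 18. CD45.2-positive leukocytes that excluded propidium iodide were sorted and captured on the 10x Genomics Chromium platform. The 4 groups received control IgG, an antibody to PD-1 (an inhibitory receptor of T cells), an antibody to PSGL-1 (a selectin ligand on leukocytes), or a combination of the latter, with doses of 200 ug per antibody given on days 8, 10 and 12. Each group was 1 library. The sources used here do not give the number of mice behind a library or their sex and age, and differences between groups therefore have no replicate check. Intervals below are 95% intervals that cover counting error only. The comparisons ask how the sorted immune cells differed when PD-1, PSGL-1 or both were targeted.

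Of 9733, 5621, 7302 and 4614 barcodes with IgG, with anti-PD-1, with anti-PSGL-1 and with the combination, 8748, 5019, 6492 and 4228 cells were kept, with a median of 3674.5, 6252, 6164 and 8392 UMIs per cell. Between 6 and 14 barcodes were shared by any pair of libraries. The IgG library had the lowest median depth, and it held 1079 of the 1135 cells of an unnamed cluster of mixed lineage and 186 of the 226 plasmacytoid dendritic-like cells. Cells were clustered without the chemokine and chemokine receptor genes, so that no member decided where a cell was placed. Macrophage-like cells numbered 1644, 1831, 1651 and 992 and monocyte-like cells 638, 553, 636 and 560. Of the macrophage-like cells, cluster 5 held 247, 125, 296 and 141, cluster 6 held 909, 1040, 841 and 600, and cluster 12 held 488, 666, 514 and 251. Of the monocyte-like cells, cluster 13 held 448, 354, 320 and 299 and cluster 17 held 190, 199, 316 and 261. Cluster 6 met 9 of 9 macrophage and 7 of 10 monocyte markers. Vcan, a monocyte marker, was among its 10 leading genes and none of the macrophage markers was. Cluster 12 met 9 of 9 macrophage and 6 of 10 monocyte markers, with no marker of either list among its 10 leading genes. Results are therefore also given cluster by cluster. No group of eosinophils was found: Epx, the eosinophil peroxidase gene, had 0 UMIs in all 4 libraries, and 0 kept cells had UMIs of 3 eosinophil markers, while 1 cell in the IgG library and 1 in the combination library had UMIs of 2. Single markers were detected at low counts: Ccr3, the gene of the CCL24 receptor, had 61, 23, 71 and 30 UMIs over all kept cells, and Siglecf 16, 20, 23 and 45. Values for Ccl24 therefore describe the cells that make the ligand, not the cells that could answer it.

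The members lie at several places in the mouse genome (GRCm38/mm10). Ccl2 (chr11:82035571-82037453), Ccl7 (chr11:82045712-82047525), Ccl12 (chr11:82101845-82103400) and Ccl8 (chr11:82115185-82116799) lie on the plus strand of chromosome 11 within 81229 bases, a stretch that also holds Ccl11, between Ccl7 and Ccl12. Ccl6 (chr11:83587882-83593087) is on the minus strand of the same chromosome. Pf4 (chr5:90772435-90773383, plus strand) and Ccl24 (chr5:135569937-135573049, minus strand) are on chromosome 5, and Ccr2 (chr9:124101950-124113557, plus strand) is on chromosome 9. All 8 are protein-coding genes.

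RefSeq promoter sequences (GRCm38.p6) were at hand for Ccl6, Ccl8, Ccl12, Pf4 and Ccr2. Those of Ccl8, Ccl12 and Pf4 are shown because these genes had their highest levels in the same macrophage cluster, the C1qa-rich cluster 5, in every library (below). Each is the 250 bases before the start site, 5′ to 3′ on the plus strand, with the letters of a found motif in capitals (TATAAAA in Ccl8 and Ccl12, TTGCTAAA in Pf4).
Ccl8, chr11:82114935-82115184: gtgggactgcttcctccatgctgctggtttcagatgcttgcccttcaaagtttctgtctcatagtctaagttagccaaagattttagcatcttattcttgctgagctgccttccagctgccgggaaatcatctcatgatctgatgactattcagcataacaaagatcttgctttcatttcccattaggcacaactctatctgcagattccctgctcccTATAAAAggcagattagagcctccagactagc
Ccl12, chr11:82101595-82101844: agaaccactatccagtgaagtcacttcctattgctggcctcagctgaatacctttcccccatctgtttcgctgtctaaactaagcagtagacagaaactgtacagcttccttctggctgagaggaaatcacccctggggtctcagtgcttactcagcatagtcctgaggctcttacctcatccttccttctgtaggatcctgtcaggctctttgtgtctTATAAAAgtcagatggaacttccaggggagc
Pf4, chr5:90772185-90772434: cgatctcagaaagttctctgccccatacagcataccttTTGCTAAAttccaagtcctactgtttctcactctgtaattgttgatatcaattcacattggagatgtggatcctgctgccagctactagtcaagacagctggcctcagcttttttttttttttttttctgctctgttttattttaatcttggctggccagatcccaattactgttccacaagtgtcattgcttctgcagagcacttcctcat

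The Ccl8 and Ccl12 windows were 56.9% identical in an end-to-end alignment, the highest of 10 pairs among the 5 promoters (48.3% to 56.9%). Gaps were allowed in the alignment, so this value is to be read against the other pairs, at 48.3% to 53.3%. Both held the TATA box TATAAAA, at 32 and 31 bases before the start site, which 4.98% of 32851 promoter windows of this length hold on either strand. This motif was added to the search after the sequences had been seen. The Pf4 window held the C/EBP letters TTGCNNAA at 212 bases before the start, found in 9.56% of windows. The letters GGG, any 5 bases and CC (NF-kappaB, 45.8% of windows), TGANTCA (AP-1, 6.75%), TTCNNNGAA (GAS, 7.02%), TTC, any 4 bases and GAA (STAT6, 5.85%) and GAAA, any 2 bases and GAAA (ISRE, 2.98%) were not in these 3 windows on either strand. A match of letters is a description of the sequence and not a binding site.

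Macrophage-like cells, cluster 6 included, held most of the UMIs of every ligand. Their share of a gene's UMIs over all kept cells was 81.1% to 90.4% for Ccl2, 86.8% to 96.6% for Ccl7, 84.2% to 95.4% for Ccl12, 92.8% to 99.0% for Ccl8 and 95.2% to 99.1% for Pf4 across the libraries. It was 76.0% to 92.3% for Ccl24 and 60.3% to 76.0% for Ccl6. Ccr2 was spread more widely, with 38.5% to 57.0% of its UMIs in macrophage-like cells. These shares include cluster 6, which carries monocyte markers too, as does cluster 12. Clusters 5 and 12 alone held 67.4% to 91.4% of Ccl8 and 81.2% to 91.1% of Pf4, but only 33.1% to 36.3% of Ccl2 and 9.52% to 19.5% of Ccl24. In UMIs, clusters 5 and 12 held 181, 20, 252 and 46 of Ccl24, against 135, 20, 88 and 79 in monocyte-like cells.

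**Figure D1:**
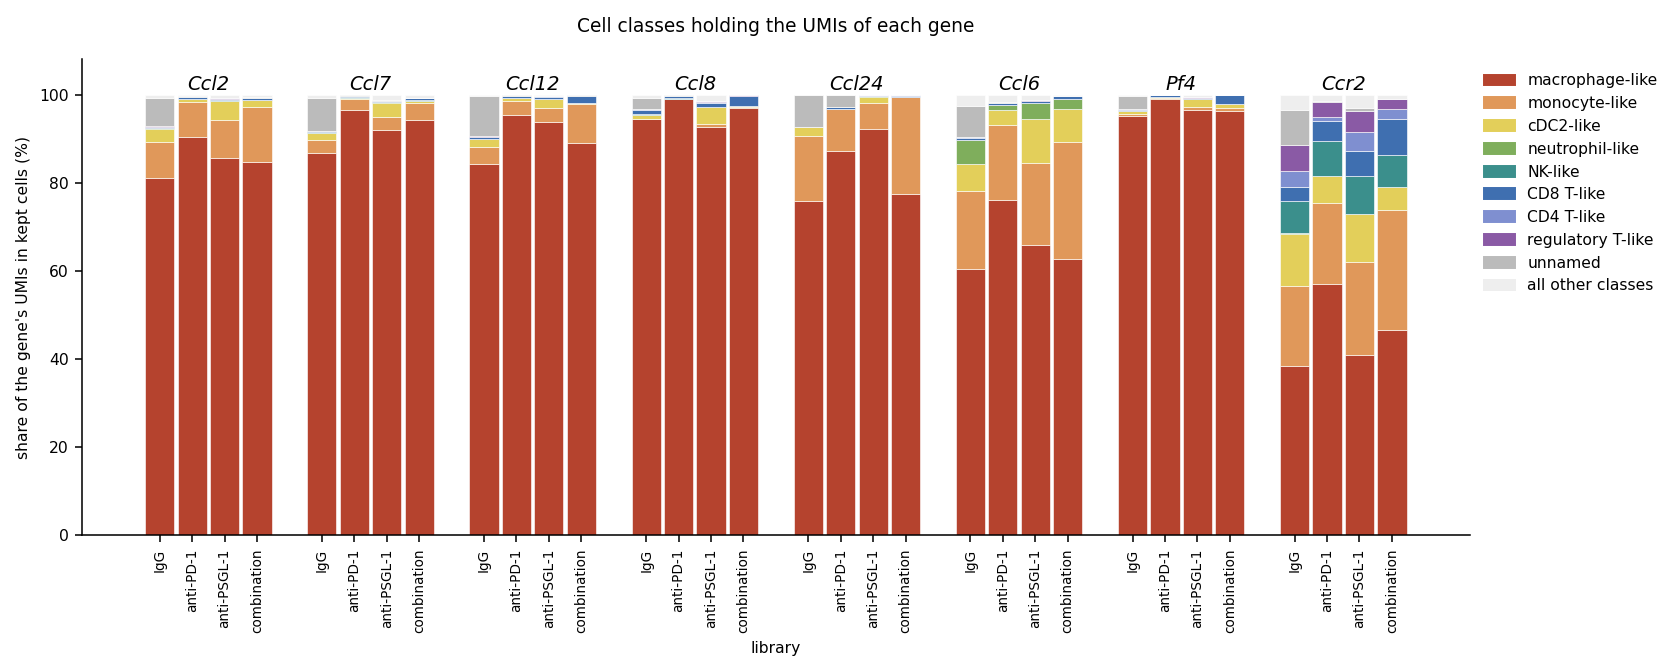
Share of each gene's UMIs (%, vertical axis) held by each cell class, as stacked bars for the 4 libraries. Macrophage-like cells (red) hold over 60% for all 7 ligands, and between 38.5% and 57.0% for Ccr2, whose bars also show NK-like and T-like cells.

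Levels are given as CPM, the gene's UMIs scaled to 1000000 UMIs of that class in that library. CD8 T-like cells, which are not known as a source of these ligands, held at most 0.91% of the macrophage-like CPM of any ligand, which bounds what free RNA in the droplets gave them.

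Ccl2, the main monocyte attractant of the list, stood at 1935, 2678, 1697 and 1984 CPM in macrophage-like cells with IgG, with anti-PD-1, with anti-PSGL-1 and with the combination, and libraries are given in this order throughout. In monocyte-like cells it stood at 540, 854, 406 and 515 CPM. The anti-PD-1 library was the highest and the anti-PSGL-1 library the lowest in each class, and the ranges of the classes did not overlap. Relative to IgG, the macrophage level was 1.38 times as high with anti-PD-1 (1.36 to 1.41), 0.877 times with anti-PSGL-1 and 1.03 times with the combination. In monocyte-like cells the anti-PD-1 ratio was 1.58 (1.49 to 1.68).

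Ccl7, another CCR2 ligand, stood at 725, 1097, 597 and 649 CPM in macrophage-like cells. Ccl12, a CCR2 ligand of the mouse, stood at 246, 384, 186 and 183 CPM. Anti-PD-1 was again the highest library for each gene, and the combination library was below IgG for each. The anti-PD-1 ratio to IgG was 1.51 for Ccl7 (1.47 to 1.56) and 1.56 for Ccl12 (1.48 to 1.65). Between the combination and anti-PD-1 libraries it was 0.591 for Ccl7 (0.573 to 0.610) and 0.477 for Ccl12 (0.450 to 0.505). The Ccl7 ratio of anti-PD-1 to IgG lay on the 1.5-fold line and passed it under 4 of 12 other settings. For Ccl12 the ratio of anti-PD-1 to IgG was 0.945 when cluster 6 was left out.

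Ccl8, which in the mouse is a ligand of CCR8, followed another order. Its macrophage-like level was 265, 162, 372 and 147 CPM, high with anti-PSGL-1 and low in the libraries with anti-PD-1. Over IgG, the ratio for anti-PD-1 was 0.610 (0.573 to 0.648), for anti-PSGL-1 1.40 (1.33 to 1.48) and for the combination 0.554 (0.516 to 0.594). With IgG, anti-PSGL-1 and the combination, most of these UMIs lay in cluster 5, at 2008, 4067 and 1104. With anti-PD-1, cluster 5 held 804, against 635 in cluster 6 and 554 in cluster 12. Cluster 5 made up 10.8%, 5.24%, 12.9% and 9.09% of macrophage- and monocyte-like cells. The class ratios therefore do not separate the level within a cluster from the share of cells in it. With each macrophage-like cluster weighing the same, an alternative chosen after seeing the data, the ratios were 0.759, 1.68 and 0.688. Monocyte-like cells held 2, 3, 27 and 2 UMIs of Ccl8 in all, so no fold is given there.

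Ccl24, also called eotaxin-2, showed the widest spread between libraries of the 8 genes. Macrophage-like cells held 705, 183, 1379 and 278 UMIs, or 86.5, 14.8, 121 and 33.1 CPM. The libraries that had received anti-PD-1, alone or combined, were low, and the other two were high. Over IgG, the ratio for anti-PD-1 was 0.172 (0.145 to 0.202), for anti-PSGL-1 1.40 (1.27 to 1.53) and for the combination 0.383 (0.332 to 0.441). The combination stood above anti-PD-1 alone, at 2.23 times (1.85 to 2.71), and below anti-PSGL-1 alone, at 0.274 times. Monocyte-like cells held 135, 20, 88 and 79 UMIs, or 46.3, 5.82, 18.4 and 16.8 CPM, with IgG the highest library.

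Ccl6, a myeloid chemokine of rodents that acts on CCR1, varied least among the ligands in the macrophage-like class as a whole. It stood at 1379, 1160, 1603 and 1234 CPM in macrophage-like cells and at 1141, 932, 1093 and 922 CPM in monocyte-like cells. Neutrophil-like cells, at 1607, 1900, 1778 and 1576 CPM, had the highest mean over libraries of any class, with a range that overlapped that of macrophage-like cells. No ratio to IgG in macrophage-like or monocyte-like cells reached 1.5-fold. Within clusters it did so in cluster 5, at 980.2, 811, 1833 and 1148 CPM, where the anti-PSGL-1 ratio was 1.87 (1.73 to 2.02). Cluster 6 had 1368, 1049.7, 1569.5 and 1103 CPM and cluster 12 had 1586, 1429.6, 1591 and 1646 CPM, with no ratio to IgG past 1.5-fold.

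Pf4 encodes platelet factor 4, a chemokine of platelet granules that some macrophages also make. Its macrophage-like level was 278, 102, 291 and 71.3 CPM, from 2263, 1252, 3327 and 598 UMIs. As with Ccl24, IgG and anti-PSGL-1 were high and the libraries with anti-PD-1 low, but here the combination was the lowest. Over IgG, the ratio for anti-PD-1 was 0.366 (0.341 to 0.392), for anti-PSGL-1 1.05 (0.994 to 1.11) and for the combination 0.257 (0.234 to 0.281). Of 7 other platelet and megakaryocyte genes, 3 or 4 had 0 UMIs in these cells, Gp1bb, Gp9 and Treml1 among them in the IgG and anti-PD-1 libraries. Their summed level was 6.50, 2.27, 6.66 and 5.84 CPM, far under that of Pf4.

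Ccr2, the receptor, was nearly level across libraries in the macrophage-like class as a whole, at 529, 435, 502 and 530 CPM. Monocyte-like cells had 690, 501, 617 and 550 CPM, and the ranges of the classes overlapped. The range of NK-like cells (348 to 480 CPM) also overlapped with that of macrophage-like cells, while regulatory T-like cells (322 to 413 CPM) lay below it. The level was 303, 264, 321 and 292 CPM in cDC2-like cells, 303, 137, 255 and 198 in CD4 T-like cells, and 43.4, 32.0, 65.8 and 35.9 in CD8 T-like cells. B-like cells held 2, 5, 7 and 0 UMIs of Ccr2, too few to place them below the T-like cells in every library.

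**Figure D2:**
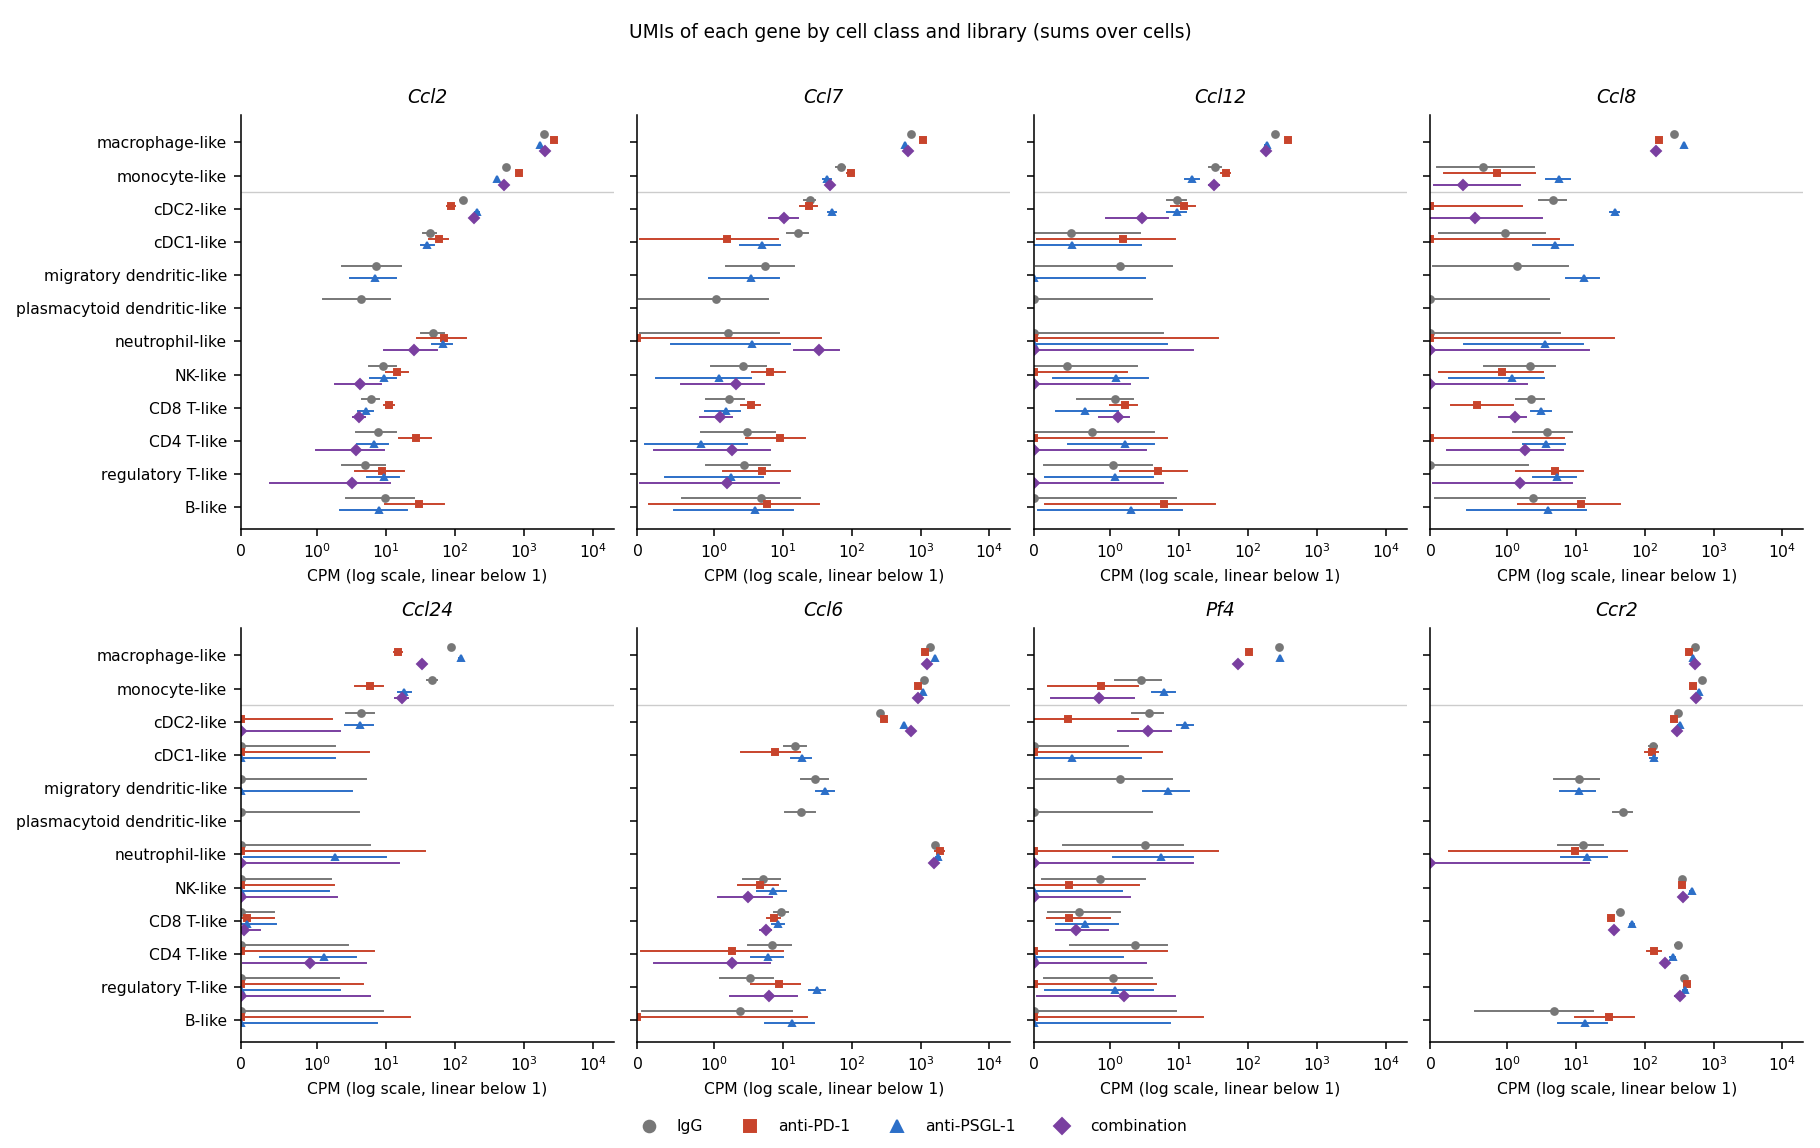
UMIs of each gene as CPM (horizontal axis, log scale that is linear below 1) in each cell class with 50 or more cells, with a symbol per library and exact 95% Poisson intervals. The 4 macrophage-like symbols of Ccl2 lie between 1697 and 2678 CPM, and those of Ccl24 are spread from 14.8 to 121 CPM.

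A member was counted as higher or lower where the levels differed by 1.5-fold or more and reached 10 CPM in either library. With anti-PD-1 against IgG, 2 of 8 members were higher in macrophage-like cells (Ccl7 and Ccl12), beside 7.26% of all 6773 genes at that level, and 3 were lower (Ccl8, Ccl24 and Pf4), beside 5.46%. With anti-PSGL-1, 0 members were higher and 0 lower, beside 0.926% and 1.6% of genes. With the combination, 0 were higher, beside 3.17%, and the same 3 were lower, beside 2.06%. The median log2 ratio of the 8 members was −0.27, −0.00 and −0.29 in these comparisons, against 0.02, −0.04 and 0.04 over all genes at that level. These comparisons share the IgG library.

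The combination differed from anti-PD-1 in 3 members. Ccl24 was higher, beside 2.53% of genes, and Ccl7 and Ccl12 were lower, beside 2.87%. Against anti-PSGL-1, Ccl8, Ccl24 and Pf4 were lower with the combination, beside 3.32%, and none was higher, beside 5.02%. Their ratios were 0.395 for Ccl8, 0.274 for Ccl24 and 0.245 for Pf4.

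In monocyte-like cells 6 members reached 10 CPM. Against IgG, Ccl2 was higher with anti-PD-1 (beside 7.3% of genes) and Ccl24 lower (beside 7.11%), which reached 10 CPM in the IgG library only. With anti-PSGL-1, Ccl7, Ccl12 and Ccl24 were lower (2.72%) and none was higher (5.85%), at ratios of 0.643, 0.470 and 0.397. With the combination, Ccl24 was lower (2.32%) at a ratio of 0.362, and none was higher (6.2%). Against anti-PD-1 alone, the combination had 1 member higher (Ccl24, 7.03%) and 2 lower (Ccl2 and Ccl7, 3.71%), at ratios of 2.88, 0.603 and 0.500. Here Ccl24 reached 10 CPM in the combination library only, so it could be counted only as higher. Against anti-PSGL-1 alone, Ccl12 was higher (4.88%) at 2.07 times and none was lower (5.41%). The Ccl24 ratios for anti-PSGL-1 and the combination turned to 2.38 and 2.75 when cells needed 1000 detected genes. Neutrophil markers in these cells summed to 308, 104, 1661 and 1070.3 CPM. Leaving out cells with an S100a8 or S100a9 UMI kept 592, 545, 515 and 505 monocyte-like cells. None of the monocyte-like member counts listed below as moved did so under this alternative. The part of other neutrophil markers in the monocyte values was not tested.

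**Figure D3:**
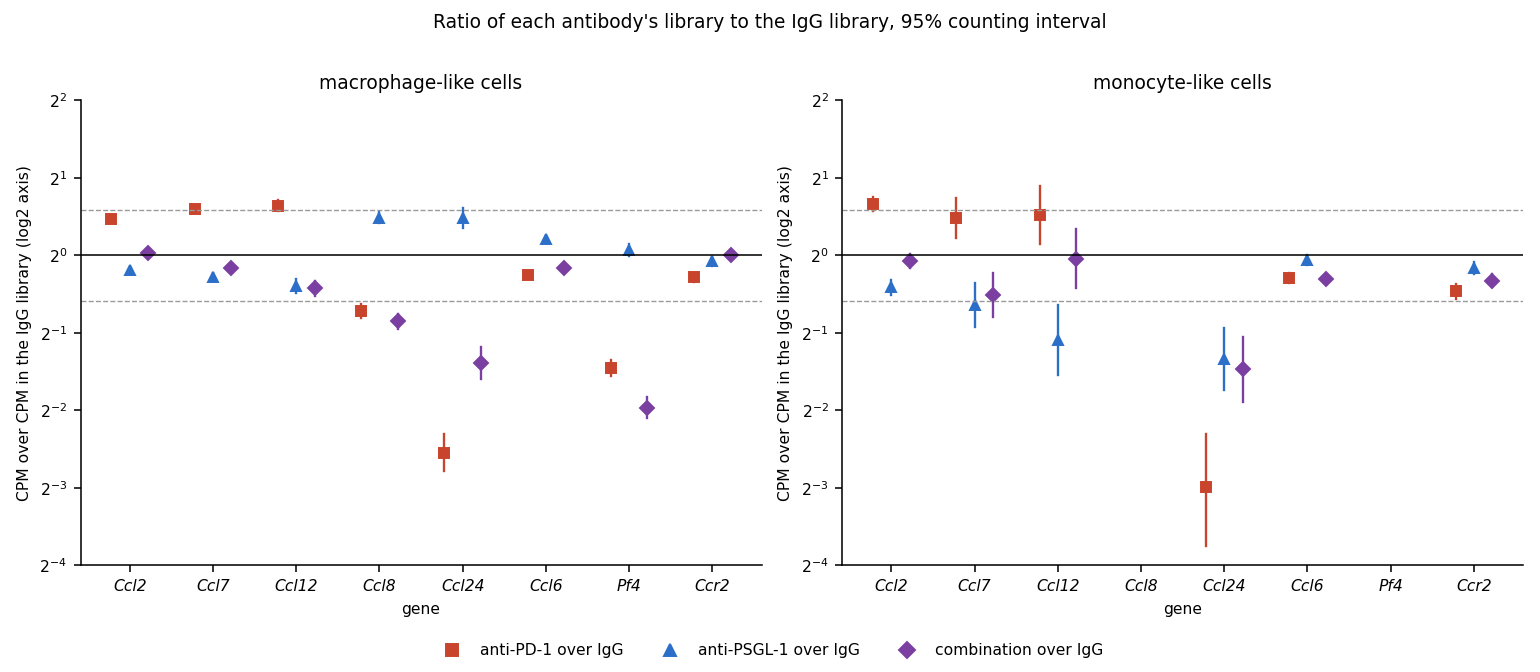
CPM in each antibody's library over CPM in the IgG library (vertical axis, log2 scale) for the members at 10 CPM or more, with 95% counting intervals and dashed lines at 1.5-fold either way. In macrophage-like cells (left) Ccl24 and Pf4 lie below the lower line with anti-PD-1 (0.172 and 0.366) and with the combination (0.383 and 0.257), while with anti-PSGL-1 all 8 genes lie between the lines.

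Higher depth raises the chance that a cell shows a UMI, so each cell was also thinned to 2000 UMIs, which left out 194, 89, 141 and 34 of the macrophage-like cells. After thinning, 4.62%, 0.861%, 5.03% and 2.61% of macrophage-like cells had a Ccl24 UMI, against 6.39%, 2.02%, 8.48% and 5.04% before. In CD8 T-like cells, thinned alike, the count was 0 in every library, which by the exact binomial interval allows at most 0.219% to 0.344% of cells with a Ccl24 UMI at that depth. Before thinning, these cells held 0, 1, 1 and 1 Ccl24 UMIs. Pf4 was found in 12.7%, 5.40%, 14.2% and 6.05% of thinned macrophage-like cells (17.9%, 8.03%, 21.9% and 9.38% before), and in at most 0.0925% of thinned CD8 T-like cells. The order of IgG and anti-PSGL-1 above the libraries with anti-PD-1 thus held for the share of cells as well as for the level of these genes.

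Ccl2 was found in 52.8%, 61.9%, 49.5% and 52.3% of thinned macrophage-like cells (61.9%, 73.7%, 62.5% and 66.4% before), with 0.654% to 2.15% in CD8 T-like cells. Ccl7 was found in 23.8%, 30.9%, 23.5% and 21.7%, and Ccl12 in 13.4%, 18.5%, 10.4% and 11.6%. The anti-PD-1 library had the highest share for each of these CCR2 ligands. For Ccl8 the shares were 5.72%, 4.19%, 7.88% and 6.16%, so the combination library, lowest in level, was not lowest in share. Ccr2 was found in 53.7%, 46.6%, 48.3% and 50.3%.

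The macrophage-like clusters carried different members. Cluster 5 was led by Ccl8, C1qa (a complement component of tissue macrophages), Pf4 and Ms4a7, with a mean of 3687 CPM of C1qa against 430 in cluster 6 and 243 in cluster 12. Cluster 6 was led by Cxcl9, an interferon-induced chemokine gene, and Aif1, and cluster 12 by Arg1 (arginase) and Mmp12 (a macrophage elastase). Among the monocyte-like clusters, cluster 13 was led by Hp, Mgst1 and Chil3, and cluster 17 by Ace, Treml4 and Adgre4, genes of the patrolling type of monocyte.

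Ccl8 was concentrated in cluster 5, at 2015, 1344, 3440 and 1380 CPM. In cluster 6 it stood at 15.5, 81.7, 18.4 and 12.8 CPM, and in cluster 12 at 34.3, 140, 15.4 and 28.7 CPM. The libraries with anti-PD-1 were thus low in cluster 5, where anti-PD-1 and the combination differed by less than counting error, and anti-PD-1 was the highest library in clusters 6 and 12. Its ratio to IgG was 0.667 (0.614 to 0.725) in cluster 5, 5.27 (4.15 to 6.76) in cluster 6 and 4.08 (3.20 to 5.27) in cluster 12. The lower Ccl8 level of the whole class with anti-PD-1 was therefore also seen in cluster 5, though not in clusters 6 and 12, and a test of the difference between clusters was not possible with 1 library a group.

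Pf4 was highest in cluster 5 too, at 1166, 647, 1734 and 384 CPM, followed by cluster 12 with 394, 161, 292 and 133 CPM and cluster 6 with 48.3, 29.1, 44.5 and 5.68 CPM. In contrast to Ccl8, it was below IgG with anti-PD-1 and with the combination in each of these clusters. Cluster 5 also led for Ccl12, at 824, 747, 958 and 530 CPM, with little spread between IgG, anti-PD-1 and anti-PSGL-1. In cluster 6, Ccl12 stood at 191, 425, 118 and 152 CPM, and in cluster 12 at 107, 248, 55.2 and 131 CPM. The excess of Ccl12 in the anti-PD-1 library thus lay in clusters 6 and 12.

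Ccl2 and Ccl7 were made across all 3 macrophage-like clusters. Ccl2 stood at 2309, 2119, 1952 and 1553 CPM in cluster 5, 1859, 2541, 1715 and 1800.1 in cluster 6, and 1937, 3033, 1568 and 2693 in cluster 12. Ccl7 stood at 1180, 1139, 986 and 910 CPM in cluster 5, 627, 1009, 544 and 478 in cluster 6, and 740.3, 1263, 568 and 1033 in cluster 12. In cluster 12 the combination library lay between IgG and anti-PD-1 for each of these genes. In cluster 6 it lay between anti-PSGL-1 and IgG for Ccl2 and was the lowest library for Ccl7. Ccr2 stood at 88.3, 117, 200.5 and 226 CPM in cluster 5. That was the lowest macrophage-like cluster except with the combination, where cluster 12 was level with it at 225 CPM. Ccr2 was highest among the macrophage-like clusters in cluster 6, at 721, 569, 676 and 679 CPM.

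Within the monocyte-like cells, the levels of the CCR2 ligands were higher in cluster 13 than in cluster 17 of the IgG library. Ccl2 stood at 678, 1116, 477 and 656 CPM in cluster 13, and at 160, 326, 347 and 363 CPM in cluster 17. Ccl7 stood at 91.1, 103, 19.8 and 63.0 CPM in cluster 13, and at 7.74, 83.5, 64.8 and 32.6 CPM in cluster 17. IgG was thus the lowest library in cluster 17 for each gene, while anti-PSGL-1 was the lowest in cluster 13.

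**Figure D4:**
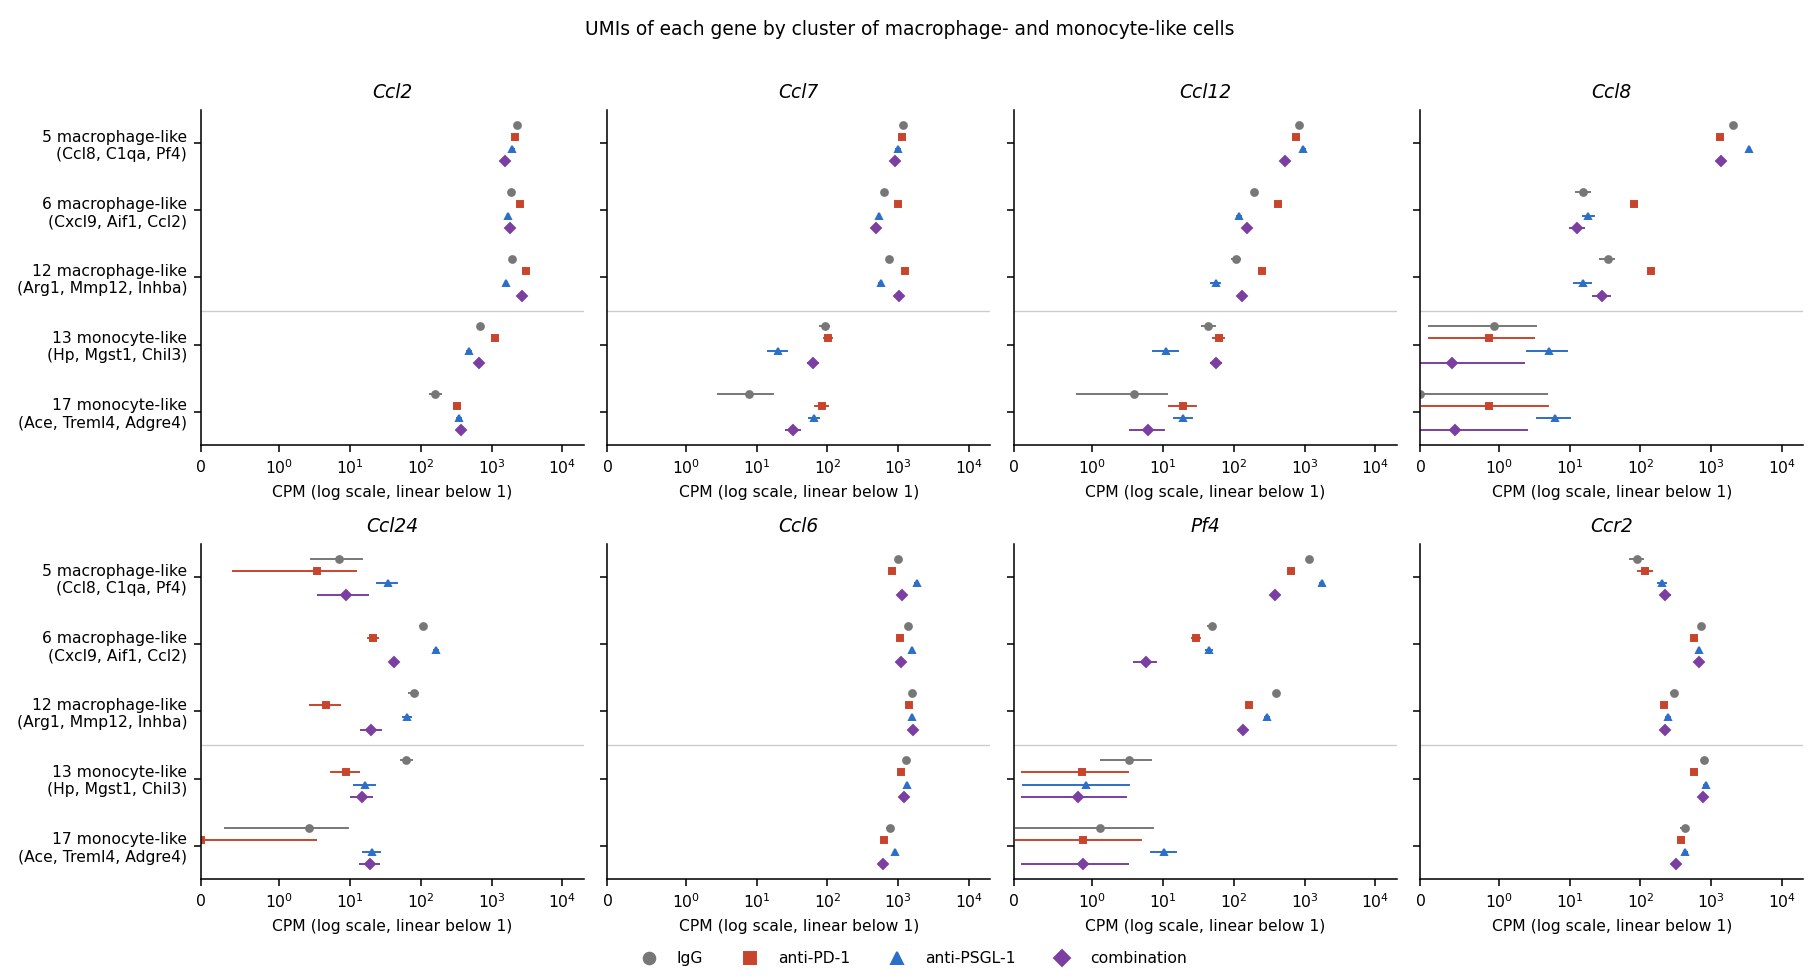
UMIs of each gene as CPM (horizontal axis, log scale that is linear below 1) in the macrophage-like clusters 5, 6 and 12 and the monocyte-like clusters 13 and 17, by library, with exact 95% Poisson intervals. Ccl8 lies between 1344 and 3440 CPM in cluster 5 and at or below 140 CPM in all other clusters, with anti-PD-1 the highest library in clusters 6 and 12.

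For Ccl24 the pattern was the reverse: cluster 5 was low, at 7.02, 3.34, 33.8 and 8.75 CPM, and cluster 6 was high, at 105.5, 21.0, 163 and 41.1 CPM. Cluster 12 stood at 79.6, 4.55, 63.9 and 20.0 CPM, and cluster 13 at 62.2, 8.71, 16.1 and 14.7 CPM. Anti-PD-1 was the lowest library in clusters 6, 12 and 13; in cluster 5 it had 2 UMIs against 7 with IgG, which leaves the order unresolved. Cluster 17 stood at 2.58, 0, 20.3 and 18.9 CPM.

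A finer clustering, again made without chemokine genes, separated a macrophage-like cluster led by Vcan (versican), Ccl24, Thbs1 (thrombospondin) and Fn1 (fibronectin), with 368, 70, 481 and 119 cells. Its Ccl24 level was 137, 167, 170.2 and 128 CPM, so that here anti-PD-1 was not low. A cluster led by Cxcl9, Gbp2 and Ly6i, which held 63, 594, 73 and 275 cells, had 320.1, 10.7, 114 and 32.5 CPM. There the IgG library was the highest and anti-PD-1 the lowest. Ccl24 was also low with anti-PD-1 in the clusters led by Hspa1a (153 against 4.22 CPM) and by Aif1 (62.8 against 9.31 CPM). The intervals of IgG and anti-PD-1 overlapped in the clusters led by Arg1 (8.53 against 5.31 CPM) and by C1qa (25.5 against 17.2 CPM). Those led by Ccl8 and by Rsad2 held at most 1 Ccl24 UMI in either library.

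**Figure D5:**
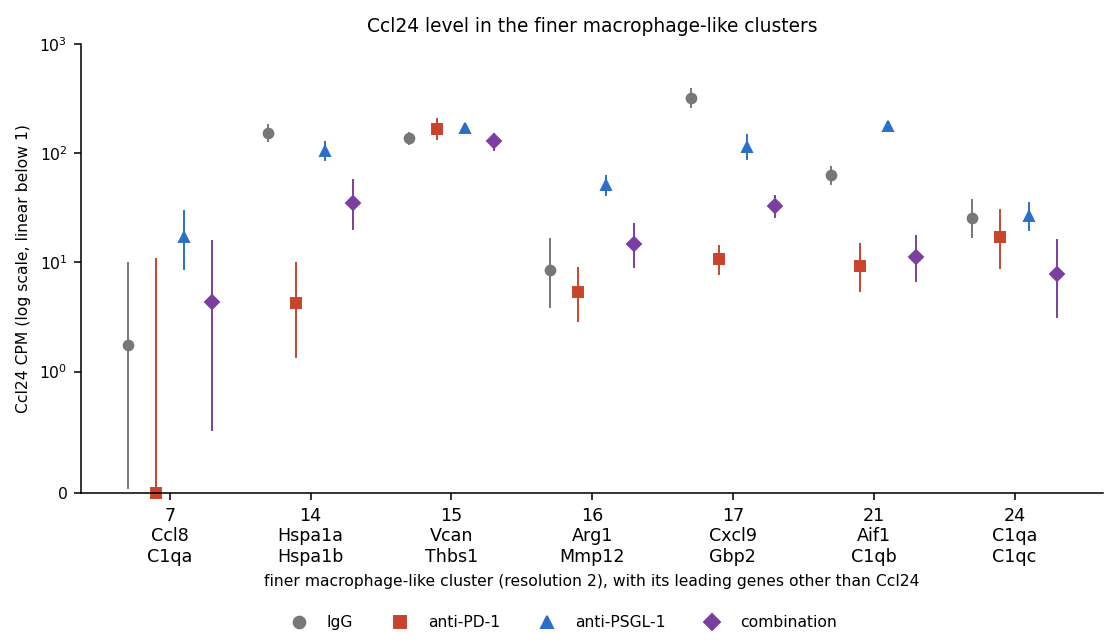
Ccl24 CPM (vertical axis, log scale that is linear below 1) by library in the macrophage-like clusters of the finer clustering, with exact 95% Poisson intervals. In the Vcan-led cluster 15 all libraries lie between 128 and 170.2 CPM, while in the Cxcl9-led cluster 17 they run from 10.7 (anti-PD-1) to 320.1 (IgG).

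Members were also found together in the same cells. Among 3290 cells of cluster 6 thinned to 2000 UMIs, over all libraries, 91.7% of those with Ccl7 had Ccl2, against 44.9% of those without. Ccl7 was found in 61.3% of the cells with Ccl12 and in 17.6% of those without. None (0%) of the 127 cells with Ccl24 had Ccl8, against 1.71% of the other cells, a difference of few cells that is not detectable at this depth. In 571 cells of cluster 5, Pf4 was found in 69.8% of cells with Ccl8 and 40.8% of cells without, and Ccr2 in 6.53% and 18.4%. In cluster 5, 42.6%, 32.3%, 50.2% and 25.4% of cells had 4 or more of the 7 ligands, against 7.03%, 10.1%, 6.05% and 5.38% in cluster 6. These shares pool cells of different libraries or states and are descriptions.

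Among dendritic cells, cDC2-like cells had the highest levels of Ccl2 and Ccl6. With anti-PSGL-1 against IgG, 5 of 6 members at 10 CPM were higher there, beside 5.55% of genes, and 0 were lower, beside 3.17%. Of these 5, Ccl8 and Pf4 reached 10 CPM in the anti-PSGL-1 library only, so they could enter the count only as higher. Ccl6 was at 579 against 258 CPM, Ccl2 at 206 against 128, Ccl7 at 51.8 against 24.5, Ccl8 at 36.5 against 4.73 and Pf4 at 12.2 against 3.60. Ccr2 was at 321 against 303 CPM. The macrophage genes C1qa, C1qb and C1qc summed to 378, 265, 489 and 608 CPM in cDC2-like cells, and their part in these values was not tested.

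The genes whose levels ran most like each member were found over 45 sums of a class in a library, from 13 classes, as Pearson's r of log2 CPM. For Ccl2 they were Lyz2 (0.94), Fcgr1 (0.94) and Csf1r (0.93), and for Ccl6 they were Clec4n (0.98), Cd14 (0.98) and Gda (0.96). Ccl7 ran most like Ccl12 (0.90), Msr1 (0.90) and Ccl2 (0.89). Ccl12 ran like Ccl7 (0.90), Pmp22 (0.90) and Rin2 (0.88). For Ccl8 the closest was Pf4 (0.87), then Arg1 (0.81) and Mmp13 (0.81), and for Pf4 they were Arg1 (0.89), Pmp22 (0.89) and Ccl8 (0.87). Ccl24 ran like Vcan (0.90), Msr1 (0.88) and F13a1 (0.88), and Ccr2 like Tln1 (0.85), Capn2 (0.83) and Ahnak (0.82). The sums of a class share their cell type, and those of a library share its depth, so these values describe the order of classes more than that of treatments.

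Other genes of the system and of its known regulators were read in macrophage-like cells, beside the shares of all genes given above (for anti-PD-1 7.26% higher and 5.46% lower, for anti-PSGL-1 0.926% and 1.6%, for the combination 3.17% and 2.06%). Of 4 other CC ligands at 10 CPM, 2 were higher with anti-PD-1: Ccl5 at 341 against 126 CPM and Ccl4 at 2151 against 1231 CPM. Ccl9 was at 508 against 721 CPM. With anti-PD-1, all 12 interferon response genes were higher (median log2 ratio 1.01), among them Gbp5 (164 against 52.5 CPM) and Irf1 (471 against 173). With the combination 6 were higher and 1 (Ifit3) lower. With anti-PSGL-1 none was higher and 1 was lower, Isg15 at 557 against 980 CPM. Of 9 NF-kappaB response genes 3 were higher with anti-PD-1, Tnf among them (444 against 170 CPM).

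The interleukin-4 and STAT6 response, a known route to Ccl24, was mixed. With anti-PD-1, 3 of its 8 genes at 10 CPM were lower and 0 higher, with Mrc1 at 46.3 against 139.5 CPM and Mgl2 at 5.27 against 23.2. Mgl2 reached 10 CPM in the IgG library only. The median log2 ratio of the 8 genes was 0.16. Retnla was at 37.7 CPM with anti-PSGL-1 and 31.0 with the combination, against 2.58 with IgG. It was the 1 gene higher of 9 at 10 CPM in each of these comparisons, and could enter them only as higher. With anti-PSGL-1, 0 were lower. With the combination 2 were lower, Mrc1 (65.2 against 139.5 CPM) and Mgl2 (10.4 against 23.2). Of 6 resident-type macrophage genes 3 were lower with anti-PD-1: Sepp1 (80.7 against 132 CPM), Igf1 (4.22 against 15.5) and Cbr2 (2.92 against 11.2). Igf1 and Cbr2 reached 10 CPM in the IgG library only, so they could enter the count only as lower. Of 8 classical monocyte genes 3 were higher with anti-PD-1, such as Ly6c2 (1659 against 689 CPM), and 3 lower, such as Fn1 (160 against 410) and Vcan (115 against 252). With anti-PSGL-1, Fn1 (741 CPM) and Vcan (386 CPM) were the 2 that were higher. Melanoma genes summed to 77.4, 21.4, 22.6 and 19.7 CPM in macrophage-like cells; leaving out the cells with such a UMI did not change the number of members past 1.5-fold beyond 1.5 times in any of these comparisons.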

How the data were processed

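For each library the authors deposited a table of unnormalised UMI counts, with 27998 genes by cell barcodes. Per the submitters' processing notes, Cell Ranger 3.1.0 and FastQC were used with mm10. The sources used here do not give the annotation version or how reads matching several related chemokine genes were treated. Groups were taken from the treatment labels, 1 library each.

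Barcodes with fewer than 300 genes, over 10% mitochondrial UMIs or over 60000 UMIs were dropped. Scrublet's own threshold failed (1, 84, 0 and 42 doublets called), and a fixed share of top-scoring cells, 0.8% per 1000 cells, was taken out instead (717, 219, 377 and 154). Each cell was scaled to 10000 counts and log-transformed. Chemokine and chemokine receptor genes were left out, and 2000 variable genes, 30 principal components, 20 neighbours and Leiden resolution 1 (2 for the finer clustering) gave 23 clusters at seed 0 (scanpy 1.11.5 with leidenalg 0.10.2, numpy 2.4.6 and scipy 1.17.1 under Python 3.11.15). A cluster was named where 3 or more markers of a class were found in 10% of cells and at 1.5-fold over the median cluster, with under 25% of cells of mixed lineage. The naming limits were chosen with the data in view, names differ from a sort by protein, and the members, lists and alternatives were chosen with earlier results of these data known.

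UMIs were added up over the cells of a class in each library and expressed as CPM. Intervals are exact (Poisson for levels, Clopper-Pearson for shares, conditional for ratios of CPM). PCR and capture errors are not in them, and no p-value was computed. Sums with under 50 cells, or under 100 cells for ratios between clusters, were not used. Named beside the 8 members are the 3 genes with the highest correlation to each (log2 of CPM plus 1, genes at 50 CPM in a sum) and, from 13 gene lists, up to 2 genes each way by ratio to IgG. Gene positions are from the GENCODE annotation of mm10 and promoters from RefSeq. Leading genes of clusters, and single list members outside this rule, were named after their values were seen. Calls were run on simulated counts with planted 2-fold changes and counting error only. Variation between libraries was not simulated, so this run does not bear on it. Alternatives were another cell filter, doublets kept, all variable genes, resolution 2, gates on marker UMIs, the mean of per-cell CPM, dividing cells left out, 2-fold, no minimum level and thinning to 1000 UMIs. Added after the data were seen were leaving out cells with neutrophil or melanoma UMIs, equal weights for clusters, and leaving out cluster 6. The list of other chemokine receptors is not reported here.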

Additional observations from a re-analysis of the deposited data

Results flagged for a closer look

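Under the same comparison with IgG, several members lay on opposite sides of 1 in different macrophage-like and monocyte-like clusters. With 1 library per group the differences between clusters were not tested, and all ratios below have counting error only. The cause was not tested.

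Ccl12 with anti-PSGL-1 was 4.95 times the IgG level in cluster 17, the Ace-led monocyte-like cells, and 0.617, 0.513 and 0.254 times in clusters 6, 12 and 13. Ccl7 with anti-PSGL-1 was 8.37 times the IgG level in cluster 17 and 0.217 times in cluster 13, the Hp-led monocyte-like cells. Ccl24 with anti-PSGL-1 was 4.82, 1.54 and 7.87 times the IgG level in clusters 5, 6 and 17, and 0.259 times in cluster 13. Ccl24 with the combination was 7.34 times the IgG level in cluster 17, and 0.390, 0.251 and 0.237 times in clusters 6, 12 and 13. Ccl8 with anti-PSGL-1 was 1.71 times the IgG level in cluster 5, the C1qa-rich macrophage-like cells, and 0.448 times in cluster 12. The cluster 17 ratios rest on low IgG levels, at 7.74 CPM for Ccl7, 3.87 for Ccl12 and 2.58 for Ccl24. Ccl24 had 7 UMIs in cluster 5 and 2 in cluster 17 of the IgG library, and its intervals are wide. They ran from 2.14 to 12.7 for anti-PSGL-1 in cluster 5, from 2.07 to 66.7 for anti-PSGL-1 in cluster 17 and from 1.91 to 62.5 for the combination in cluster 17. In these sums Ccl24 reached 10 CPM only in the antibody libraries, so it could be counted only as higher. The same held for Ccl7 and Ccl12 in cluster 17, which had 6 and 3 UMIs in the IgG library. Their intervals for anti-PSGL-1 ran from 3.77 to 23.1 and from 1.60 to 24.8. S100a8, a neutrophil marker, ran from 13.2 to 1331 CPM across libraries in cluster 17. The finer clustering had a monocyte-like cluster led by Lcn2, S100a9 and S100a8, with 15, 2, 68 and 23 cells. It held 39 Ccl24 UMIs with anti-PSGL-1 and 0 with the combination, against 14 and 43 in the finer Ace-led cluster. For Ccl7 with anti-PSGL-1 these were 12 against 138 UMIs.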

How the results depend on the processing

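No paired analysis was possible because the results come from no test and each group holds 1 library. Of 135 member counts under alternatives, 106 stayed within 1.5 times the main count and 29 moved. Ccl24 and Pf4 were past 1.5-fold lower in macrophage-like cells, with anti-PD-1 and with the combination against IgG, under all 12 alternatives, at ratios of 0.0772 to 0.187 and 0.286 to 0.521 with anti-PD-1. Ccl8 stayed past 1.5-fold lower with anti-PD-1 in 8 of 12.

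In macrophage-like cells, the 5 members past 1.5-fold with anti-PD-1 became 3 with 1000 genes per cell, per-cell means, marker gates or cluster 6 left out, and 2 at 2-fold or with clusters weighted equally. The 0 with anti-PSGL-1 became 1 (Ccl8) with per-cell means, dividing cells left out, cells with S100a8 or S100a9 left out or equal weights, and 2 with marker gates (Ccl8 and Ccl24). The 3 of the combination against anti-PD-1 became 1 without cluster 6.

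In monocyte-like cells, the 2 with anti-PD-1 became 1 (1000 genes, 2-fold), 4 (all variable genes, equal weights) or 6 (marker gates). The 3 with anti-PSGL-1 became 1 (1000 genes, all variable genes), 0 (marker gates) or 5 (no minimum level). The 1 with the combination became 2 (doublets kept, resolution 2, marker gates) or 3 (no minimum level). Against anti-PD-1 the 3 of the combination became 6 (marker gates) or 1 (2-fold), and against anti-PSGL-1 the 1 became 2 (marker gates) or 3 (no minimum level).

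Of 278 values of ratios that were past 1.5-fold in the main setting, 8 lay on the other side of 1, as did 61 of 532 values of ratios that were within 1.5-fold. Ccl12 with anti-PD-1 in macrophage-like cells was 0.945 without cluster 6. In monocyte-like cells Ccl12 in the combination against anti-PSGL-1 was 0.628 with doublets kept and 0.982 with all variable genes. Ccl24 with anti-PSGL-1 was 2.38 with 1000 genes, 1.02 with all variable genes and 1.10 with marker gates, and with the combination 2.75 with 1000 genes. Ccl7 with anti-PSGL-1 was 1.22 with marker gates. The causes were not tested. Depth limits Ccl8 in monocyte-like cells, with 2 to 27 UMIs per library.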
